A study of Mus musculus with 4 samples.

Results

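All genes of the 4 mouse Hox clusters were described in RNA sequencing of whole-tissue RNA from mouse spinal cord, taken on postnatal day 8. They were taken by name: every gene whose symbol was Hox, a cluster letter from a to d and a paralog number. This gave 39 genes of 21249 with a summed value in the deposited tables: 11 in cluster a, 10 in cluster b, 9 in cluster c and 9 in cluster d. The control group (Ctrl) was Chd7f/+; Olig1-cre, with 1 floxed allele of Chd7, and the conditional knockout (cKO) was Chd7f/f; Olig1-cre, with both alleles floxed. Each group had 2 libraries. Both groups carried the Olig1-cre driver, the control was itself heterozygous for the floxed allele, and the strain background was given as mixed. Olig1 is expressed in cells of the oligodendrocyte lineage and in the ventral progenitors they arise from, so Cre was not directed to most cord neurons. The labels do not say whether the 2 libraries of a group came from separate animals or which level of the cord was taken. The p-values therefore rest only on the spread between these libraries, largely borrowed from other genes, and this spread may be technical. CHD7 is an ATP-dependent chromatin remodeller, and the study was about its part in the timing of myelination.

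Hox genes encode homeodomain transcription factors that give cells their position along the head to tail axis. Within a cluster the genes lie in the order of their expression along the body: low paralog numbers reach into the hindbrain and neck, middle numbers mark brachial and thoracic levels, and high numbers mark lumbar, sacral and tail levels. In the spinal cord, Hox proteins bind DNA with cofactors of the PBX and MEIS families and set, among other things, which motor neuron columns and pools form at each level. The genes keep much of this regional pattern after birth.

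In mm9 coordinates of the deposited tables, the cluster a genes spanned chr6:52105366-52210874, the cluster b genes chr11:96055675-96229567, the cluster c genes chr15:102751562-102867283 and the cluster d genes chr2:74506367-74603199. Upstream sequence was found for 22 of the 39 genes in the RefSeq promoter table, built on GRCm38.p6, a later build than that of the expression tables. The 250 bases before the start are shown for 4 genes: Hoxb8, which had the highest level, Hoxd11 and Hoxa11, which were higher in the knockout libraries, and Hoxd1, which was lower in them. Capitals mark matches, on either strand, to any of 4 short motifs whose letters are given after the sequences.
Hoxb8, chr11:96281655-96281904, plus strand: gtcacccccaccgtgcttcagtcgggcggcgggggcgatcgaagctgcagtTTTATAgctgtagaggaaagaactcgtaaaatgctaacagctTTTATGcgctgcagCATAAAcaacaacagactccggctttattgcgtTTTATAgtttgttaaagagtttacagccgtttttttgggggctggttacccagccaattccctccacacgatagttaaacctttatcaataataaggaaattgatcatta
Hoxd11, chr2:74682073-74682322, plus strand: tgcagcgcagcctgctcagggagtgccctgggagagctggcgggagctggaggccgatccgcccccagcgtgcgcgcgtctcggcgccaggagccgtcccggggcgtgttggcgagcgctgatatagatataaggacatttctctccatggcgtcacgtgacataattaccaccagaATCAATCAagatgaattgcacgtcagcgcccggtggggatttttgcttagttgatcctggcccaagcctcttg
Hoxa11, chr6:52245811-52246060, minus strand: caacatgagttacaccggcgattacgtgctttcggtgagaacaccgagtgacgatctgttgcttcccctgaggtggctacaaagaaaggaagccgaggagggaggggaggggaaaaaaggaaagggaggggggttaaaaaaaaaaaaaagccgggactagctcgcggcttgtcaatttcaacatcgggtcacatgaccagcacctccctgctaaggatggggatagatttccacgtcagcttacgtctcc
Hoxd1, chr2:74762730-74762979, plus strand: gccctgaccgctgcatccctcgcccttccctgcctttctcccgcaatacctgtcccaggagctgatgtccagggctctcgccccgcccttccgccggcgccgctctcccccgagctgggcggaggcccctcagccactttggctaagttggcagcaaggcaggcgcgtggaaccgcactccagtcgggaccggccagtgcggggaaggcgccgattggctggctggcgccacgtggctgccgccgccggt

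The Hoxb8 window held 2 CDX matches, 157 and 143 bases before the start on opposite strands, and 2 TATA box matches on the minus strand. The CDX motif was searched as TTTATG, and the CDX factors are caudal-type homeodomain proteins known to act on Hox clusters in the embryo. In the Hoxd11 window there was 1 PBX-HOX match, 73 bases before the start on the minus strand, and the windows of Hoxa11 and Hoxd1 held none of the 4 motifs. In the GENCODE annotation of the same assembly, an exon of the antisense transcript Hoxa11os lies in the Hoxa11 window and an exon of the antisense transcript Haglr in the Hoxd1 window. CDX matches stood in 18.2% of the 22 Hox windows and in 10.8% of all 32851 windows in the table. The PBX-HOX motif, searched as TGATTNAT, stood in 9.09% of the Hox windows and in 2.82% of all windows. For the MEIS motif, searched as TGACAG, the corresponding shares of windows with a match were 9.09% and 15.9%. For the TATA box, searched as TATAAA, the shares of the Hox windows and of all windows were 18.2% and 12.4%. No 2 of these motifs have the same letters, and neighbouring matches can overlap. Hox windows had a median GC content of 59.2% and a median of 13 CpG dinucleotides, against 52.4% and 6 over all windows. The Hox shares rest on 4 windows for CDX, 2 for PBX-HOX, 2 for MEIS and 4 for the TATA box. The start site used for Hoxa7, which has CDX matches, lay 1068 bases from that of the deposited transcript. The matches describe letters in the windows only.

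All 39 genes had values in all 4 libraries, and 31 of them had a mean of at least 1 FPKM (fragments per kilobase of transcript, scaled to mapped depth) and were tested. FPKM is scaled to transcript length, so levels can be set against each other between genes. Relative sequencing depth, read from the ratio of coverage to FPKM, was 2.07 for Ctrl 1, 1 for Ctrl 2, 2.22 for cKO 1 and 3.19 for cKO 2. Correlations of log2 values over genes were 0.986 and 0.990 within the groups and 0.967 to 0.980 between them. Chd7 itself was at 3.52 and 3.12 FPKM in the Ctrl libraries and 2.52 and 3.38 FPKM in the cKO libraries, a difference that did not pass the test (limma adjusted p = 0.657). A sum over the whole transcript cannot show the loss of a floxed exon, so Chd7 did not check the labels. The libraries also differed in X-inactivation and Y-linked genes: Xist was at 51.8 to 55.6 FPKM in the Ctrl libraries, 19.6 in cKO 1 and 0.233 in cKO 2, and Ddx3y reached 11.6 FPKM in cKO 2 against 0.0720 to 0.195 in the others. Their part in the Hox results was not tested.

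Hox genes of neck, brachial, thoracic, lumbar and sacral levels were all present in all 4 libraries. Hoxb8, which is expressed through much of the cord, was the highest Hox gene, with 83.5 and 99.8 FPKM in the Ctrl libraries and 109 and 108 FPKM in cKO. Hoxb9 followed with a mean of 46.1 FPKM over the 4 libraries, then Hoxb6 with 33.7, Hoxc8 with 26.0, Hoxb7 with 21.6, Hoxd8 with 19.1, Hoxc10 with 18.7 and Hoxa5 with 15.8. Middle paralogs thus stood at the top of the order, and 4 of the first 5 lay in cluster b. Of the 38 pairs of neighbours in the order of levels, 5 had ranges over the 4 libraries that did not overlap, among them Hoxb8 above Hoxb9, Hoxb9 above Hoxb6, Hoxb6 above Hoxc8 and Hoxa3 above Hoxa4. Hoxb8 made up 22.0% and 23.4% of all summed Hox FPKM in the Ctrl libraries and 22.2% and 23.9% in the cKO libraries. Cluster b as a whole gave 52.2% to 54.9% of it, cluster a 15.2% to 16.6%, cluster c 15.7% to 18.7% and cluster d 12.9% to 14.7%.

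**Figure D1:**
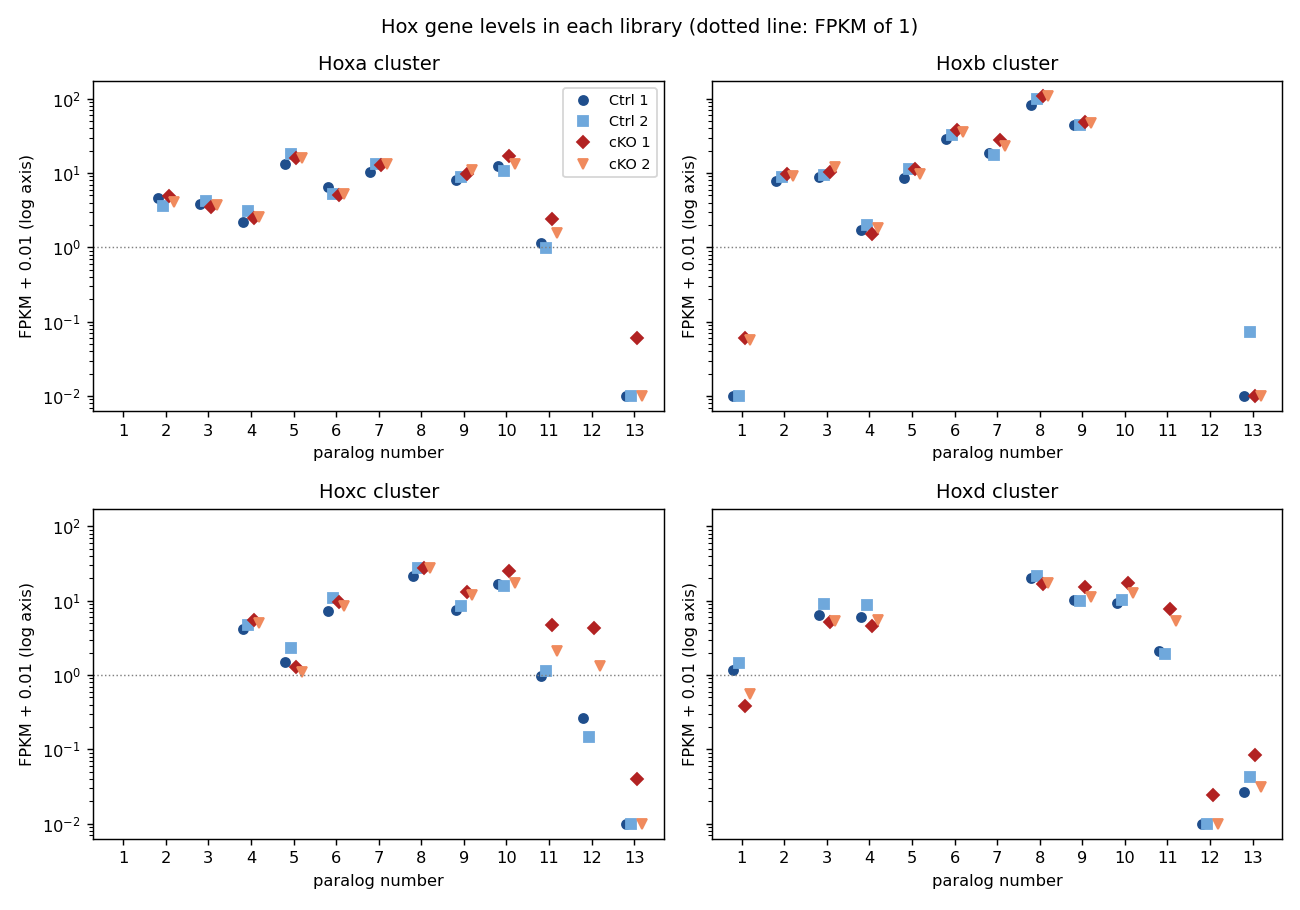
Level of the Hox genes reported here in the 4 libraries, as FPKM + 0.01 on a log axis, in 1 panel per cluster against paralog number, with 1 point per library and a dotted line at an FPKM of 1. The middle paralogs of cluster b stand highest, with Hoxb8 near 100 FPKM, and Hoxb1, Hoxd12 and the paralog 13 genes stand lowest.

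Several genes at the ends of the clusters were at or near 0. Hoxb1, a hindbrain gene, was listed at 0 in both Ctrl libraries, while the cKO values were 0.0496 and 0.0459 FPKM. Hoxd13, which marks the tail end and the digits, was at 0.0169 and 0.0326 FPKM in the Ctrl libraries and 0.0733 and 0.0209 FPKM in the cKO libraries. Hoxa13, Hoxc13 and Hoxd12 were each listed at 0 in 3 libraries and at 0.0509, 0.0306 and 0.0142 FPKM in cKO 1, and Hoxb13 was listed at 0 in all but Ctrl 2, where it was at 0.0633 FPKM. Values this low rest on very little sequence: the Hoxa13 value stood for 106 covered bases and that of Hoxd12 for 57.1. Hoxb1, Hoxa13, Hoxb13, Hoxc13, Hoxd12 and Hoxd13 were too low at this depth for a comparison, and no fold is given for them.

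Between the groups, 8 of the 31 tested Hox genes passed the test (limma on log2(FPKM + 1), Benjamini-Hochberg adjusted p under 0.05 over 12913 gene sums). Hoxa11, Hoxb7, Hoxc9, Hoxc11, Hoxc12, Hoxd10 and Hoxd11 rose in the cKO libraries, and Hoxd3 fell. The 8 were 25.8% of the tested Hox genes, beside 10.7% of all gene sums called in either direction. By direction, 22.6% of the Hox genes rose and 3.23% fell, beside 4.13% and 6.54% of all gene sums. Without adjustment, 13 Hox genes had p under 0.05. The filter bears on these counts, since Hoxc12 entered the test only through its cKO values and Hoxd1 stayed out because its cKO values were low. With a minimum of 0.3 FPKM both were tested, and of 33 Hox genes 6 rose and 1, Hoxd1, fell. The split moved with the scaling of the libraries: with median-of-ratios factors 6 rose, with TPM 4 and with quantile scaling 4, and Hoxd3 did not pass under any of these. Leaving out cKO 1 left Hoxd11 as the 1 Hox gene past the threshold, and leaving out Ctrl 2 left 5, all of which rose. When genes below the filter, short rows or single transcripts entered the limma fit, 0 Hox genes passed (7, 8 and 7 at an unadjusted p under 0.05), and Hoxd11 had adjusted p of 0.268, 0.0564 and 0.187. In whole tissue, fewer cells of a type and less RNA per cell cannot be told apart.

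The log2 difference was above 0 for 23 of the 31 tested Hox genes (49.5% of all gene sums). Counted without a test, the groups did not overlap for 74.2% of the tested Hox genes, beside 53.5% of all gene sums. In 18 genes both cKO libraries were above both Ctrl libraries (58.1% of 31, beside 24.3% of all gene sums), and in 5 both were below (16.1%, beside 29.3%). The gap was at least 1.5-fold for Hoxc11, Hoxc12 and Hoxd11, all higher in the cKO libraries, beside 0.991% of all gene sums. It was so for no tested Hox gene lower in them, beside 2.84%. The filter bears on this too: Hoxc12 passed it only through its cKO values, and Hoxd1, lower by such a gap, stayed out. The median difference of the tested Hox genes was 0.19 on the log2(FPKM + 1) scale, and that of all gene sums was -0.0028. The summed Hox level was 380 and 427 FPKM in the Ctrl libraries and 489 and 451 FPKM in the cKO libraries, or 403 ± 33.0 against 470 ± 27.4 (SD, n = 2 each). As a share of all summed FPKM it was 0.115% and 0.122% against 0.135% and 0.137%.

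The paralogs 10 to 13, the caudal end of the clusters, held 5 of the 7 genes that rose. Of these 5, Hoxc12 passed the filter on low values only through its cKO libraries. All 7 tested members of paralogs 10 to 13, Hoxc12 among them, were higher in both cKO libraries than in both Ctrl libraries. The same held for 24.3% of all gene sums. For each of the 7, cKO 1 was the highest library, and the corresponding share of all gene sums was not computed. The median difference of the 7 was 0.56 (log2 scale). It was 0.13 for the 15 tested genes of paralogs 5 to 9 and -0.025 for the 9 of paralogs 1 to 4. Of the middle block 2 rose and 13 did not pass, and of the low block 1 fell and 8 did not pass. Over all gene sums, 4.13% rose and 6.54% fell.

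Hoxd11, a gene of lumbosacral cord and of the forearm, was at 2.07 and 1.93 FPKM in the Ctrl libraries and 7.75 and 5.31 FPKM in the cKO libraries. The groups lay far apart, and both cKO libraries were more than 1.5 times above both controls. Its means were 2.0 ± 0.10 and 6.53 ± 1.72 FPKM (SD, n = 2 each), a 3.27-fold difference in level. On the log2(FPKM + 1) scale the difference was 1.31 ± 0.16 (SE), with a limma adjusted p of 2.42e-07. It was the Hox gene with the smallest p. Without cKO 1 the log2 difference was 1.08 (limma adjusted p = 6.40e-05).

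Hoxc11 was at 0.969 and 1.14 FPKM in the Ctrl libraries and 4.72 and 2.08 FPKM in the cKO libraries. The 2 cKO libraries were both above the controls but differed from each other by more than the controls did. Means were 1.05 ± 0.118 and 3.40 ± 1.86 FPKM (SD, n = 2 each), a 3.23-fold difference, and the log2 difference was 1.03 ± 0.19 (limma adjusted p = 1.42e-04). Without cKO 1 it was 0.59 and did not pass (limma adjusted p = 0.156). Hoxa11, the third paralog 11 gene, with a role in limb and kidney, was at 1.12 and 0.963 FPKM against 2.38 and 1.57 FPKM. The groups did not overlap, cKO 2 lay nearer to the controls than cKO 1 did, and the log2 difference was 0.53 ± 0.16 (limma adjusted p = 0.0290). The adjusted p was 0.0571 without Ctrl 2 and 0.679 without cKO 1. Hoxa11 overlaps its antisense gene Hoxa11as, and whether the counting used strand was not given in the sources used here, so the reads of the pair could not be told apart. All 3 tested genes of paralog 11 thus rose, beside 4.13% of all gene sums.

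Hoxc12, a gene of the caudal end of the axis, was at 0.256 and 0.137 FPKM in the Ctrl libraries and 4.24 and 1.33 FPKM in the cKO libraries. Both controls were near 0, and in FPKM the cKO libraries differed from each other by more than cKO 2 differed from the controls. The log2 difference was 1.55 ± 0.21 (limma adjusted p = 1.34e-06), with an adjusted p of 0.0573 under robust moderation and 0.352 with no filter. The control values stood for 320 and 82.8 covered bases of the transcript, and the cKO values for 5691 and 2566, so no fold in level is given. Hoxc12 passed the filter on low values only through the cKO libraries, so its call rests on a filter that its own difference decided, and without cKO 1 it was below the filter.

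Among the paralog 10 genes, which specify lumbar motor neurons of the hindlimb, Hoxd10 rose. It was at 9.28 and 10.1 FPKM in the Ctrl libraries and 17.4 and 12.5 FPKM in the cKO libraries. The groups did not overlap, with means of 9.69 ± 0.590 and 15.0 ± 3.47 FPKM (SD, n = 2 each) and a log2 difference of 0.56 ± 0.16 (limma adjusted p = 0.0160). Without cKO 1 the adjusted p was 0.594, and without Ctrl 1 it was 0.0647. Hoxa10 was at 12.3 and 10.7 FPKM against 16.9 and 13.1 FPKM, and Hoxc10 at 16.7 and 15.7 FPKM against 25.1 and 17.2 FPKM. Neither passed (log2 differences of 0.35 ± 0.16 and 0.34 ± 0.16, limma adjusted p = 0.163 and 0.195), and in both cKO 2 stood close to the higher control. Of the 2 deposited Hoxa10 transcripts, 1 was at 7.48 and 6.89 against 11.2 and 9.17 FPKM, with the groups apart. The other was at 4.85 and 3.80 against 5.66 and 3.91 FPKM, and its groups overlapped.

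**Figure D2:**
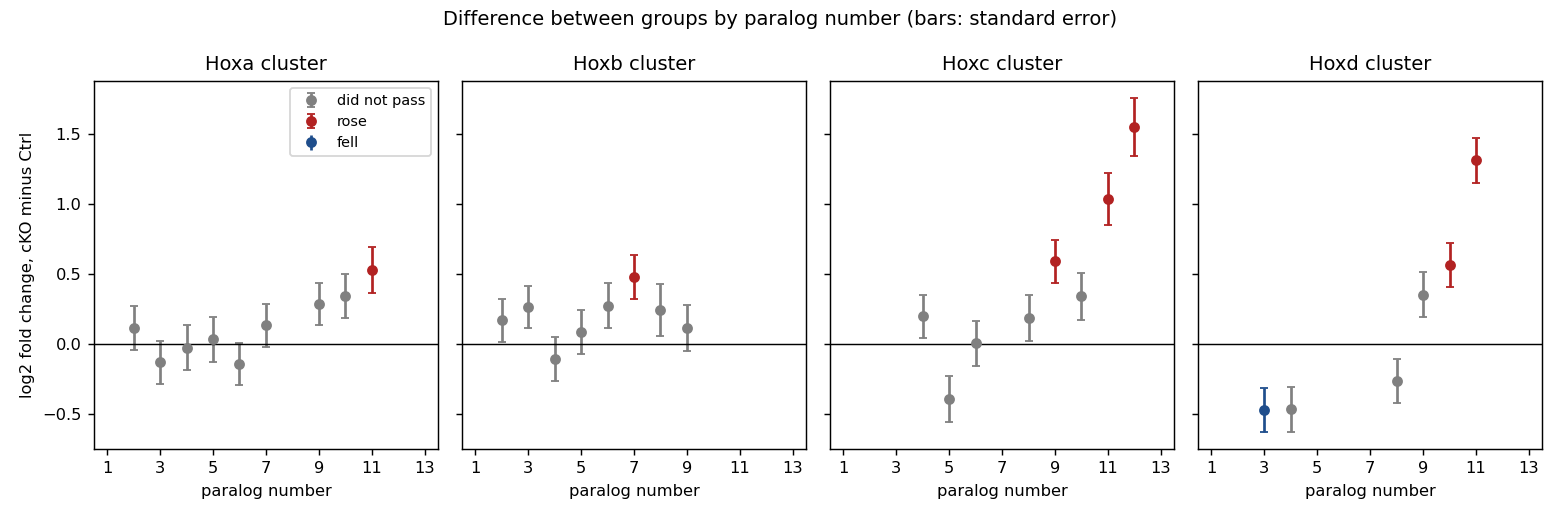
Difference between cKO and Ctrl for the 31 tested Hox genes on the log2(FPKM + 1) scale, with bars of 1 SE from limma, against paralog number in 1 panel per cluster; red genes rose, the blue gene fell and grey genes did not pass. Hoxd3, Hoxd4 and Hoxc5 lie lowest, at -0.47 to -0.39, and values reach 1.31 for Hoxd11 and 1.55 for Hoxc12.

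Paralog 9 genes act at the thoracic level and the border to the lumbar cord. All 4 were higher in both cKO libraries than in both Ctrl libraries, beside 24.3% of all gene sums. Hoxc9, which holds motor neurons to a thoracic identity by repressing the limb-level programme, was at 7.47 and 8.54 FPKM in the Ctrl libraries and 13.2 and 11.9 FPKM in the cKO libraries. The cKO libraries were close to each other, and the log2 difference of 0.59 ± 0.15 passed (limma adjusted p = 0.00758). It did not pass without Ctrl 1 (0.0599) or without cKO 1 (0.181). Hoxd9 was at 10.3 and 9.91 FPKM against 15.4 and 11.3 FPKM, and Hoxa9 at 8.07 and 8.71 FPKM against 9.76 and 11.1 FPKM. Neither passed (log2 differences of 0.35 ± 0.16 and 0.29 ± 0.15, limma adjusted p = 0.152 and 0.244), and Hoxb9, with 44.4 and 44.0 FPKM against 48.7 and 47.2 FPKM, had the smallest difference of the 4 (0.12 ± 0.17, adjusted p = 0.727).

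Paralog groups 5 to 8 span brachial and thoracic levels. Of their 11 tested genes, only Hoxb7 passed, beside 10.7% of all gene sums. Hoxb7 was at 18.3 and 17.4 FPKM in the Ctrl libraries and 27.6 and 23.3 FPKM in the cKO libraries. The groups did not overlap, and the log2 difference was 0.48 ± 0.16 (limma adjusted p = 0.0410). The adjusted p was 0.549 without cKO 1, 0.142 without Ctrl 2 and 0.0863 without Ctrl 1. Hoxd8 went the other way in level, at 20.4 and 21.5 FPKM against 17.0 and 17.5 FPKM, without passing (log2 difference -0.26 ± 0.15, limma adjusted p = 0.305). Hoxc8, a thoracic and brachial gene, was at 21.4 and 27.2 FPKM against 27.9 and 27.3 FPKM, just above the higher control. The log2 differences of Hoxb8 and Hoxc8 were 0.24 and 0.19, and neither passed. The paralog 8 genes of 3 clusters thus had values on both sides of 0. The groups did not overlap for any of the 3, beside 53.5% of all gene sums.

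Hoxc5, which acts with Hoxa5 in phrenic motor neurons, was at 1.47 and 2.31 FPKM in the Ctrl libraries and 1.28 and 1.09 FPKM in the cKO libraries. Both cKO libraries were below both controls, and the difference did not pass (-0.39 ± 0.16, limma adjusted p = 0.123), although without Ctrl 1 the adjusted p was 0.0114. Hoxa5 was at 13.4 and 17.9 FPKM against 16.0 and 15.7 FPKM, with the cKO libraries inside the range of the controls. Hoxc6, a brachial gene of limb-innervating motor neurons, was likewise inside it at 7.35 and 10.8 FPKM against 9.54 and 8.42 FPKM. The remaining tested genes of these groups, Hoxb5, Hoxa6, Hoxb6 and Hoxa7, had log2 differences of -0.14 to 0.27, with Hoxb6 the highest and its groups apart (28.8 and 32.1 against 37.9 and 36.1 FPKM). Hoxb5 was at 8.49 and 11.2 FPKM against 11.2 and 9.65 FPKM, Hoxa6 at 6.47 and 5.20 against 5.06 and 5.28 FPKM, and Hoxa7 at 10.3 and 13.3 against 12.8 and 13.1 FPKM. For these 3 the groups overlapped.

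At the front end of cluster d the levels were lower in the knockout libraries. Hoxd3, a gene of neck level, was at 6.36 and 9.10 FPKM in the Ctrl libraries and 5.09 and 5.38 FPKM in the cKO libraries. The controls differed from each other by more than the cKO libraries did, and the log2 difference was -0.47 ± 0.16, just past the threshold (limma adjusted p = 0.0488). It did not pass without Ctrl 2 (0.440), without cKO 1 (0.361) or without cKO 2 (0.102). Hoxd4 was at 6.02 and 8.78 FPKM against 4.52 and 5.53 FPKM, with a log2 difference of -0.46 ± 0.16 on the other side of the threshold (limma adjusted p = 0.0567). The Hoxd3 row spans Hoxd4, so their reads may be split between them, and the pair does not count as separate measurements. Hoxd1, which is expressed in a class of pain-sensing sensory neurons, was at 1.15 and 1.43 FPKM against 0.379 and 0.552 FPKM. The groups were more than 1.5 times apart, but Hoxd1 was below the filter, and with a minimum of 0.3 FPKM its log2 difference of -0.64 ± 0.14 passed (limma adjusted p = 0.00445). With no filter its adjusted p was 0.268.

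The other genes of paralogs 2 to 4 stood close to the controls. Hoxa2, the selector of the hindbrain and its neural crest, was at 4.59 and 3.57 FPKM against 4.86 and 4.12 FPKM, and Hoxb2 at 7.80 and 8.81 FPKM against 9.66 and 9.23 FPKM. Hoxa3 was at 3.81 and 4.24 FPKM against 3.49 and 3.68 FPKM, and its row spans Hoxa4, Hoxa5 and Hoxa6. Hoxb3 was at 8.79 and 9.43 FPKM against 10.4 and 11.9 FPKM. None of these 4 passed, with log2 differences of 0.12, 0.17, -0.13 and 0.26. Hoxa4, Hoxb4 and Hoxc4 had values of -0.025, -0.10 and 0.20 and did not pass. Hoxa4 was at 2.16 and 3.10 FPKM against 2.48 and 2.59 FPKM and Hoxb4 at 1.71 and 2.0 against 1.49 and 1.81 FPKM, so that their groups overlapped. Hoxc4 was at 4.20 and 4.74 FPKM against 5.46 and 5.08 FPKM, with the groups apart.

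**Figure D3:**
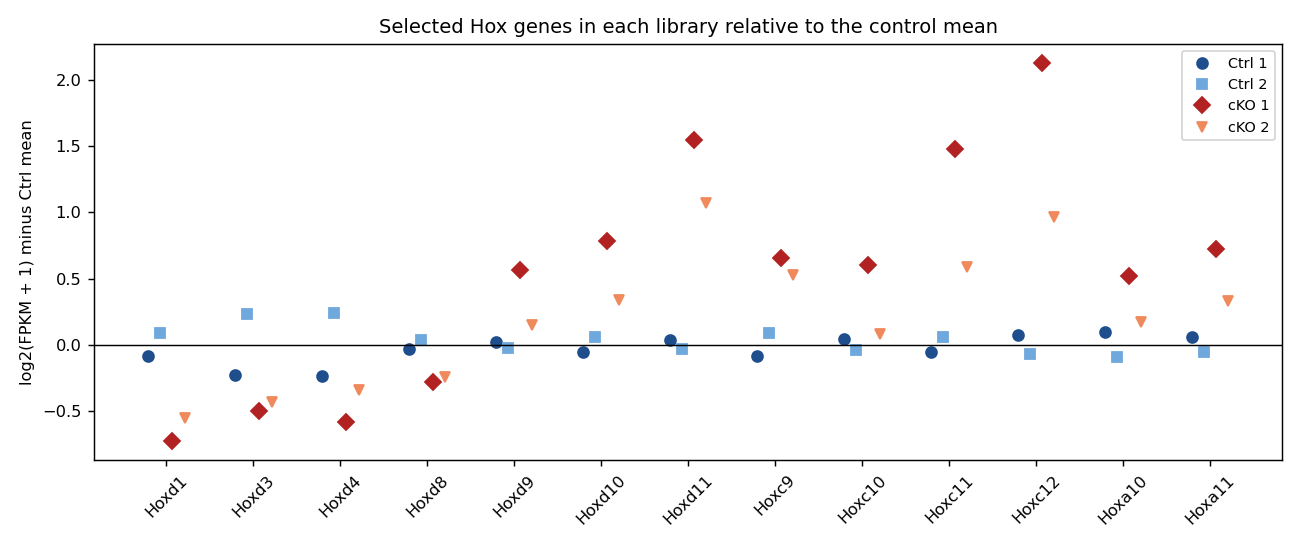
Difference of each library from the Ctrl mean on the log2(FPKM + 1) scale for 13 Hox genes of clusters d, c and a, chosen after their values were seen, with 1 point per library. The cKO 1 library lies highest for all 7 tested genes of paralogs 10 to 12, and in cluster d both cKO libraries pass from below the controls at Hoxd3 to above them at Hoxd11.

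The difference between the groups increased along the clusters. Over the 31 tested genes, the rank correlation of the log2 difference with paralog number was 0.72 (Pearson 0.71). This is a description across genes that share the same 4 libraries and are not independent. The filter bears on the correlation too. Hoxc12, with the highest difference and paralog number of the tested genes, passed the filter only through its cKO values. Hoxd1, at paralog 1, stayed out because its cKO values were low. Within clusters the rank correlation was 0.73 over 9 genes of cluster a, 0.17 over 8 of cluster b, 0.83 over 8 of cluster c and 1.0 over 6 of cluster d. Cluster b has no tested gene above paralog 9. Taken by library against the same Ctrl mean, it was 0.70 for cKO 1 and 0.62 for cKO 2. Over paralogs 1 to 10 only, which leaves out Hoxc12 and the paralog 11 genes, it was 0.58 across 27 genes.

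Libraries of 1 group also differed from each other along the same axis. The rank correlation with paralog number was 0.64 for the difference of cKO 1 from cKO 2 and -0.44 for that of Ctrl 2 from Ctrl 1. In cluster d these values were 0.94 and -0.77, in cluster c 0.81 and -0.71, in cluster a 0.32 and -0.083 and in cluster b 0.21 and -0.24. An order by paralog number was therefore seen between replicate libraries as well as between the groups, mostly in clusters c and d. Whether the cords were taken from matching levels was not tested, because the labels do not give the levels.

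Ratios of Hox genes within a library do not depend on a scaling factor between libraries. Hoxd11 over Hoxd3 was 0.325 and 0.212 in the Ctrl libraries and 1.52 and 0.987 in the cKO libraries, a 4.68-fold difference of means. The ratio separated the groups with a wide gap. Hoxd10 over Hoxd4 was 1.54 and 1.15 against 3.85 and 2.26, Hoxc11 over Hoxc5 was 0.657 and 0.491 against 3.69 and 1.91, and Hoxa11 over Hoxa3 was 0.295 and 0.227 against 0.680 and 0.426. These 4 pairs were chosen after their values were seen, so the ratios restate the differences of their members and add no separate evidence. In 2 pairs between clusters, chosen in the same way, Hoxd4 over Hoxc4 was 1.43 and 1.85 against 0.828 and 1.09, and Hoxd8 over Hoxb8 was 0.244 and 0.215 against 0.157 and 0.162.

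As a share of all summed Hox FPKM, paralogs 10 to 13 made up 11.2% and 9.55% in the Ctrl libraries and 16.1% and 11.8% in the cKO libraries. Group means were 10.4% ± 1.20 and 13.9% ± 3.03 (SD, n = 2 each), and cKO 2 stood close above Ctrl 1. Paralog group 11 alone gave 1.09% and 0.943% against 3.03% and 1.99%, or 4.09 ± 0.0944 against 11.9 ± 4.16 FPKM. Paralog group 12 gave 0.0673% and 0.0321% against 0.869% and 0.296%. At the other end, paralogs 1 to 4 together gave 12.4% and 13.2% against 9.95% and 11.2%. The middle block of paralogs 5 to 9 held 76.3% and 77.3% against 74.0% and 77.0%, and its groups overlapped.

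**Figure D4:**
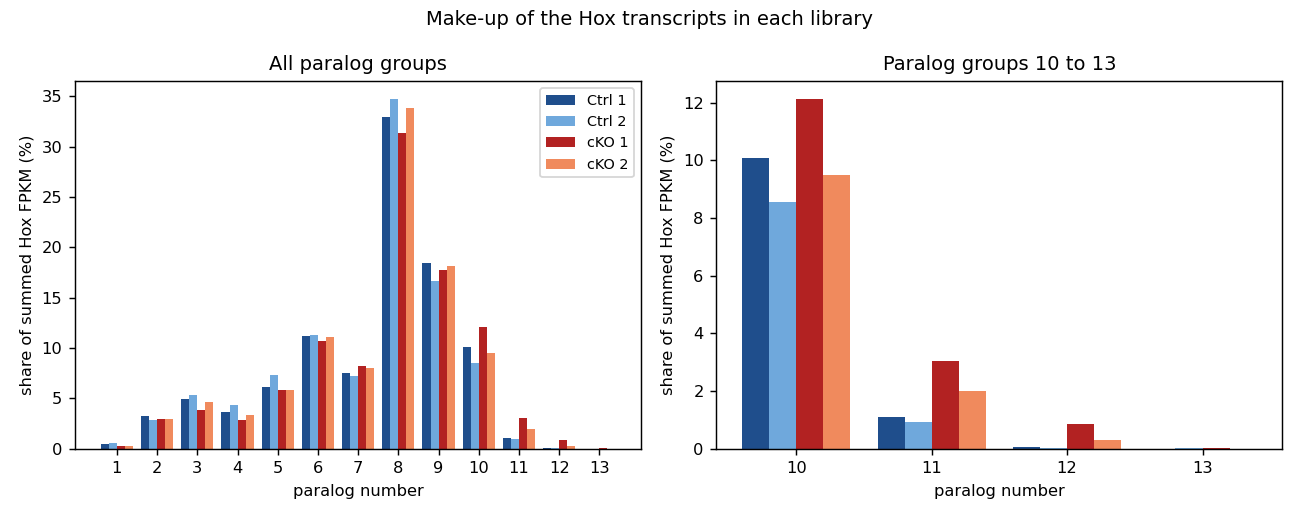
Share of summed Hox FPKM by paralog group, in percent, with 1 bar per library, for all groups on the left and groups 10 to 13 on the right. Paralog group 8 holds 31.4% to 34.8% in every library, and group 11 holds 0.943% to 1.09% in the Ctrl libraries and 1.99% to 3.03% in the cKO libraries.

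Levels of cell type markers also differed between the groups, which does not show whether cell numbers or RNA per cell differed. Of all gene sums tested, 4.13% rose and 6.54% fell. Of 10 oligodendrocyte markers, 9 fell, and their summed level was 16361 and 18679 FPKM in the Ctrl libraries against 6702 and 10458 FPKM in the cKO libraries. Summed neuron markers were at 1766 and 1749 against 2481 and 2110 FPKM, with 1 of 10 (Slc32a1) rising. This sum is weighted to its abundant members, which did not move alike. Tubb3 was at 276 and 319 against 543 and 424 FPKM and Nefl at 513 and 546 against 832 and 725 FPKM. Snap25 was at 326 and 285 against 342 and 303 FPKM and Nefm at 399 and 402 against 454 and 391 FPKM. None of these 4 passed. Spinal motor neuron markers were at 98.4 and 115 against 139 and 127 FPKM, with 1 of 8 (Slc18a3) rising. When each Hox gene was expressed per 1000 FPKM of summed neuron markers, the 7 genes that rose were the 7 whose cKO libraries both stayed above both controls. The ratio of means was then 2.48 for Hoxd11, 2.41 for Hoxc11, 1.43 for Hoxa11, 1.20 for Hoxc9, 1.17 for Hoxd10 and 1.09 for Hoxb7. On that scale 13 of the 31 tested Hox genes had both cKO libraries below both controls, beside 72.0% of all gene sums (3.96% above), since the divisor was higher in both cKO libraries. Hoxd3 was then at 0.523, Hoxd4 at 0.528 and Hoxd8 at 0.637 of the control mean. The part of cell makeup in the Hox differences was not tested.

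Markers of neighbouring tissue also moved. Meninges and fibroblast markers were at 282 and 63.9 FPKM in the Ctrl libraries against 38.6 and 41.4 FPKM in cKO 1 and cKO 2, with 7 of 10 tested falling, and Schwann cell markers were at 115 and 29.9 against 21.1 and 20.7 FPKM, with 3 of 4 falling. Ctrl 1 was the high library in both lists. Sensory ganglion markers were at 44.6 and 57.8 against 70.6 and 63.5 FPKM, with 1 of 4 tested (Pou4f1) rising. Most of that sum was Prph, which is also on the motor neuron list, at 35.3 and 47.2 against 56.5 and 50.5 FPKM, while Avil was at 0.177 and 0.132 against 0.0999 and 0.102 FPKM, and Trpv1 and Scn10a were at most 0.187 FPKM in every library. Forebrain, midbrain and cerebellum markers were at 9.65 and 7.96 against 14.5 and 12.4 FPKM, with 2 of 4 tested (Barhl1 and Neurod6) rising and Emx2 at 0 in all libraries. Hindbrain markers were at 4.43 to 4.74 against 5.19 to 5.84 FPKM, and neither of the 2 tested passed, or had an unadjusted p under 0.05, in limma. Astrocyte markers were at 1796 and 2002 against 1428 and 1840 FPKM, with 1 of 7 (Slc1a3) rising. Vascular markers (85.8 to 98.7 FPKM) and muscle and cartilage markers (4.55 to 5.59 FPKM) had no member past the limma threshold, and 1 each with an unadjusted p under 0.05. The part of these tissues in the Hox results was not tested.

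Genes that work with or around Hox proteins were read from the same fit. Of 9 Hox cofactors, Meis2 rose and 8 did not pass (11.1% called, beside 10.7% of all gene sums). The median difference of the 9 was 0.25 on the log2 scale. Meis2, a TALE homeodomain partner of Hox proteins, was at 10.3 and 8.99 FPKM in the Ctrl libraries and 16.4 and 13.7 FPKM in the cKO libraries (0.59 ± 0.15, limma adjusted p = 0.00881). Pbx3 was at 16.4 and 12.8 against 21.5 and 18.5 FPKM, and Meis3 at 12.3 and 13.4 against 17.8 and 14.4 FPKM. Pbx2 had lower cKO values, at 11.1 and 13.4 against 10.8 and 9.08 FPKM. These 3 did not pass (adjusted p = 0.0694, 0.244 and 0.276).

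Of 31 tested upstream and chromatin regulators of Hox clusters, 1 rose and 3 fell (12.9%, beside 10.7% of all gene sums). Ezh2, the methyltransferase of Polycomb repressive complex 2 that places the repressive mark on silent Hox genes, was at 7.60 and 6.86 FPKM against 4.18 and 4.29 FPKM (-0.65 ± 0.15, limma adjusted p = 0.00284). Eed, another core subunit of that complex, was at 5.75 and 5.97 against 3.75 and 4.34 FPKM (-0.45 ± 0.15, adjusted p = 0.0499). Kdm6a, a demethylase that removes the same mark, also fell, from 6.21 and 5.84 to 4.10 and 3.56 FPKM (-0.54 ± 0.15, adjusted p = 0.0141). Xist and Ddx3y also differed between these libraries, and their part in the Kdm6a difference was not tested. Other genes that act on the mark, named after their values were seen, did not pass: Suz12, Ezh1, Jarid2 and Kdm6b had limma adjusted p of 0.778, 0.980, 0.379 and 0.0694. Cyp26b1, an enzyme that degrades retinoic acid, rose from 2.68 and 2.11 to 4.65 and 3.62 FPKM (0.60 ± 0.16, adjusted p = 0.00965). The most abundant other members, Phc2, Phc1, Ash2l and Men1, had log2 differences of -0.26, 0.0027, -0.14 and 0.11 and did not pass, and Cdx2 and Cdx4 were listed at 0 in all libraries.

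Among 11 tested genes downstream of Hox in spinal motor neurons, Etv4 and Lhx1 rose and 9 did not pass. The share called was 18.2%, beside 10.7% of all gene sums. Etv4, an ETS factor of limb motor pools, was at 13.8 and 15.1 FPKM against 27.6 and 24.3 FPKM (0.80 ± 0.16, limma adjusted p = 4.22e-04). Lhx1, a LIM factor of lateral limb motor neurons and of several interneuron classes, was at 2.85 and 2.15 against 3.97 and 3.91 FPKM (0.50 ± 0.15, adjusted p = 0.0284). The GDNF receptor genes Ret and Gfra1 were at 13.6 and 13.4 against 19.3 and 16.6 FPKM and at 20.5 and 14.7 against 21.2 and 21.1 FPKM. Neither passed (adjusted p = 0.109 and 0.315), and Epha4 and Pou3f1 had log2 differences of 0.027 and -0.17.

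Among other homeobox genes, Gbx1 and Gbx2 rose, and the other 2 of 4 tested did not pass. The share called was 50% of these 4, beside 10.7% of all gene sums. Gbx1 and Gbx2 are expressed in dorsal cord interneurons among other places. Gbx1 was at 2.52 and 2.01 FPKM against 4.27 and 4.81 FPKM (0.77 ± 0.15, limma adjusted p = 6.46e-04), and Gbx2 at 1.98 and 1.84 against 3.65 and 3.98 FPKM (0.73 ± 0.15, adjusted p = 0.00107). The 2 that did not pass were Mnx1 and Gsx1, at -0.045 and 0.26 on the log2 scale. Evx1 and Evx2, the neighbours of Hoxa13 and Hoxd13, were below the filter, Evx1 at 0.167 and 0.159 against 0.430 and 0.268 FPKM and Evx2 at 0.161 and 0.169 against 0.299 and 0.275 FPKM. Of the noncoding transcripts in the clusters, 2 were tested and neither passed in limma, with 1 at an unadjusted p under 0.05. Hoxa11as was at 0.932 and 1.0 against 1.93 and 1.19 FPKM, beside Hoxa11, and 2700086A05Rik, inside the span of Hoxa3, was at 1.74 and 0.936 against 2.14 and 1.53 FPKM.

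**Figure D5:**
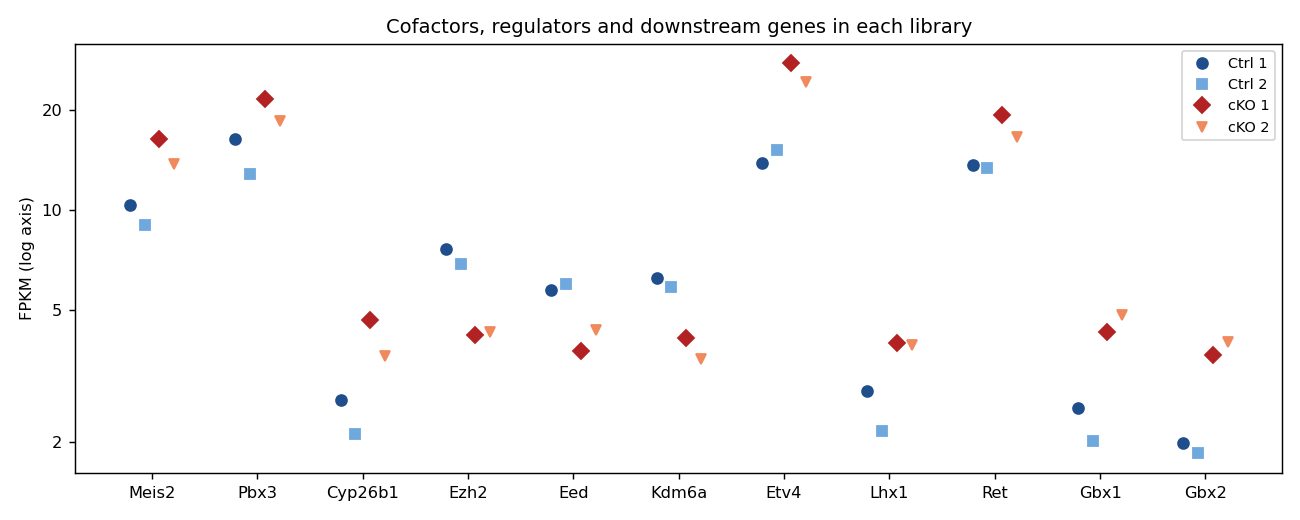
Level of 11 Hox cofactor, regulator, downstream and other homeobox genes, the 9 that passed the test with Pbx3 and Ret, in FPKM on a log axis, with 1 point per library. Meis2, Cyp26b1, Etv4, Lhx1, Gbx1 and Gbx2 are higher and Ezh2, Eed and Kdm6a lower in both cKO libraries than in both Ctrl libraries.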

How the data were processed

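Spinal cord RNA from 4 libraries was measured by RNA sequencing. The authors deposited 1 table per library with FPKM and with coverage (a depth signal), per the file headers. Per the submitters' processing notes, the tools were CASAVA, TopHat, Cufflinks and Cuffdiff, without versions, and the build was mm9. Read counts, read length and the use of strand were not given in the sources used here, so intervals from counts could not be computed.

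Of 28107 rows per table, 315 whose status was not OK in at least 1 library were dropped. FPKM was summed per symbol over rows of at least 300 bases, which gave 21249 sums. The 12913 with a mean of at least 1 FPKM were tested on log2(FPKM + 1) with limma 3.58.1 in R 4.3.3, with a mean-variance trend and Benjamini-Hochberg adjustment at 0.05. The pseudocount understates changes of low genes. The moderated fit borrowed spread from all genes (36.3 prior and 2 residual degrees of freedom). The fit was tested on simulated data. Relative depth came from coverage over FPKM, and covered bases from coverage times length.

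Every Hox gene entered the counts and sums, and a few items are not reported here. Full statistics are given for those past the threshold, those apart by 1.5-fold and up to 6 others of smallest p. From each list of related genes, members past the threshold and up to 4 others of highest level are named. Genes and lists were chosen with earlier results of these data known. Scalings, filters, pseudocount, moderation, row sums, a replicate block and left-out libraries were varied.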

Additional observations from a re-analysis of the deposited data

How the results depend on the processing

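The median difference of the tested Hox genes was 0.19 and remained above 0 under every alternative: 0.12 with no filter on low values, where it covers all 39 genes, and 0.12 to 0.27 with each library left out. The difference in the share of paralogs 10 to 13 was 3.53 percentage points, and 1.38 to 5.68 with each library left out. The Hox genes past the limma threshold, 8 by the reported fit, were 4 with TPM scaling and 4 with quantile scaling. They were 0 with no filter (7 at an unadjusted p under 0.05), 0 with all rows summed (8) and 0 with transcripts tested singly (7). Over all genes 1378 were called, against 664, 736, 1, 53 and 20 in those fits, and no other tool was run. The genes called in the cofactor, regulator and downstream lists numbered 7, against 2 with TPM scaling and 0 with no filter, with all rows or with single transcripts (13, 12 and 10 unadjusted). With each library left out, 1 to 9 Hox genes, 384 to 1438 of all genes and 1 to 10 of the lists were called. In each case the fewest were called without cKO 1. A group of 1 library is then assumed to vary like the other. These causes were not tested. Over genes, the deviations of same-numbered libraries had a correlation of -0.24. This 1 value cannot settle whether the replicate numbers pair the libraries. With a replicate block 6 Hox genes, all higher in cKO, 996 of all genes and 5 of the lists were called, the median Hox difference was 0.19, and Hoxb7 and Hoxd3 no longer passed (limma adjusted p = 0.102 and 0.105). With the numbers crossed, an alternative chosen after seeing the data, the calls were 9, 2178 and 10. Single Hox genes changed sign in 10 of 495 recomputed values, all for genes that did not pass. With each library left out, Hoxa2 spanned -0.029 to 0.26, Hoxa4 -0.21 to 0.16, Hoxa5 -0.16 to 0.23, Hoxa7 -0.038 to 0.31, Hoxb5 -0.094 to 0.26 and Hoxc6 -0.24 to 0.25. With quantile scaling Hoxa4 was 0.047, and with TPM scaling Hoxc6 was -0.019.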
